A study of Mus musculus with 20 samples.

Results

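The genes described here are 36 interferon-induced genes of the mouse, taken by symbol from the 55866 genes of the RiboTag count table. They comprised 4 regulators of the interferon response (Irf1, Irf7, Irf9 and Stat2), 1 sensor (Ifih1), 1 feedback inhibitor (Usp18), 15 antiviral effectors, 7 guanylate-binding proteins (GBPs), 5 immunity-related GTPases (IRGs) and 3 genes of antigen processing. There were enough counts to test 32 of them, and 4 (Gbp4, Gbp6, Igtp and Ifi47) were not tested. Because the 32 had to pass a filter on low counts, they are not all members of the list.

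Interferons are secreted proteins that warn cells of infection and shape immunity in tumors. Type I interferons act through a complex that holds STAT2 and IRF9 and binds the interferon-stimulated response element (ISRE), and interferon-gamma, made mainly by T and NK cells, acts through the gamma-activated site (GAS) and induces IRF1. Antiviral effectors such as the Ifit, Oas and Mx genes are typical targets of the first route, GBPs and IRGs, which attack membranes around intracellular pathogens, are typical targets of the second, and endothelial cells respond to both.

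RiboTagEC mice (Rpl22HA/HA x Cdh5CreERT2, female, C57BL/6J) carry an HA-tagged ribosomal protein in cells in which tamoxifen-inducible Cre, driven by the endothelial Cdh5 gene, has been active, so that anti-HA immunoprecipitation (IP) enriches ribosome-bound endothelial mRNA over the whole tumor homogenate (input). All mice received 75 mg/kg of tamoxifen for 5 days at 3 weeks of age, carried tumors of 1 murine breast carcinoma line (Py8119) implanted at 8 weeks, and were given control mouse IgG or 25 mg/kg of the Notch4-blocking antibody 6-3-A6 intravenously for 10 days at 2 doses a week, starting at 30 mm3 per the sample labels and 50 mm3 per the series text. Each of 4 groups (control IgG input, 6-3-A6 input, control IgG IP and 6-3-A6 IP) held 5 libraries, the IP and the input of a tumor sharing 1 lysate. The study removed outliers and compared 3 control IgG IP libraries (tumors 2, 4 and 5) with 3 6-3-A6 IP libraries (tumors 1, 3 and 4).

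Libraries held 11881214 to 26728205 counts on genes (median 16942643), so that 3 counts, the limit that a count of 0 allows, corresponded to 0.104 to 0.315 CPM (counts scaled to library size) for counting error alone. The summed level of 15 endothelial markers was 187 to 300.0 CPM in input and 1111 to 6377 CPM in IP, and that of 11 macrophage markers was still 3174 to 8786 CPM in IP. The description label of the 6-3-A6 libraries names the opposite fraction from their titles, and Pecam1, an endothelial adhesion molecule, was at 34.7 to 66.3 CPM in libraries titled 6-3-A6 input and at 191 to 1385 CPM in those titled 6-3-A6 IP. The 6-3-A6 input 4 library stood apart in both directions over all tested genes, with the lowest level of its group for 35.8% and the highest for 33.6%. Of the 32 members, 18 were lowest and 0 highest in it. Because tumors are bulk samples, fewer cells of a type and less RNA per cell cannot be told apart.

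Promoters of 5 members are shown because they carry the letters that the factors above are known to bind. They are the 250 bases before the RefSeq start site (GRCm38.p6) of Isg15 (chr4:156200819-156201068, minus strand), Rsad2 (chr12:26456453-26456702, minus strand), Gbp2 (chr3:142620413-142620662, plus strand), Gbp2b (chr3:142594597-142594846, plus strand) and Irf1 (chr11:53769764-53770013, plus strand). Capitals mark matches on either strand to GAAANNGAAA, the core of an ISRE, or, in Irf1 alone, to TTCNNNGAA, the core of a GAS, which is its own reverse complement.
Isg15: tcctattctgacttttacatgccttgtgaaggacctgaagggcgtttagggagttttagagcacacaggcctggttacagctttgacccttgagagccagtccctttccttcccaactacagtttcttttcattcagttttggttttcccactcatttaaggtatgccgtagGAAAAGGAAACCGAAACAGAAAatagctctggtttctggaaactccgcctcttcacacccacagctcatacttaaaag
Rsad2: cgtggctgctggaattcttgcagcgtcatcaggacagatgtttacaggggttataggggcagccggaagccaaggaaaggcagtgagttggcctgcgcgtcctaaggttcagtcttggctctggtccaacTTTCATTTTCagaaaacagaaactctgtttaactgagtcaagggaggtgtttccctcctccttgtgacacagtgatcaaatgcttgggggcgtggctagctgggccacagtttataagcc
Gbp2: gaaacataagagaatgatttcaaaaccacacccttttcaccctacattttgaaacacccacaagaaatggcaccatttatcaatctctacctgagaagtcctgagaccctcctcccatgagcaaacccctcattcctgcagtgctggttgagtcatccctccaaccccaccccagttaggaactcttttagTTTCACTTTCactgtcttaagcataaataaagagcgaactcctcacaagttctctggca
Gbp2b: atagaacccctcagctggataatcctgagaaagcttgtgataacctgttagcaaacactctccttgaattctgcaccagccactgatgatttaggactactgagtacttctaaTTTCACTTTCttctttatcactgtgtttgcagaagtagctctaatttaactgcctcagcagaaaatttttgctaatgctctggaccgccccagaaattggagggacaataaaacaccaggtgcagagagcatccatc
Irf1: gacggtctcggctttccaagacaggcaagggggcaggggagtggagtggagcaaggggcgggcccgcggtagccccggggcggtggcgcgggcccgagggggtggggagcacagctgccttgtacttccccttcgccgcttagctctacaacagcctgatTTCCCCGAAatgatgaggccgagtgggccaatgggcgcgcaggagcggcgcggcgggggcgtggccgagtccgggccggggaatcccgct
Isg15 held 3 overlapping matches that began at -78, -72 and -66 from the start site, and Rsad2, Gbp2 and Gbp2b each held 1 on the opposite strand, beginning at -120, -59 and -137. In Irf1, the GAS match began at -90. RefSeq promoters of 300 bases (250 before and 50 after the start) were at hand for 29 of the 36 members, as 33 promoters. The ISRE core was found in 18 of the 33 (54.5%) and in 3.44% of all 32851 promoters, and the GAS core in 9 of the 33 (27.3%) and in 8.3% of all. All 5 GBPs with a promoter held the ISRE core, as did 8 of 12 antiviral effectors, 3 of 4 IRGs and 0 of 3 genes of antigen processing. The GAS core was held by 2 of the 5 GBPs, 3 of 12 antiviral effectors, 2 of 4 IRGs and 1 of 3 genes of antigen processing. A match is a run of letters, and binding was not measured.

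The 4 untested members held almost no counts. Gbp4 and Ifi47 were at 0 counts in every library, Gbp6 had 1 count in all, and Igtp had 1 in control IgG input 5, 1 in control IgG IP 5 and 0 in every other library. In the count table, 99.8% of the span of Gbp4 was overlapped by Gbp8 and Gbp9, all of Gbp6 by Gm43302, 99.2% of Igtp by Irgm2 and all of Ifi47 by Olfr56 and Gm12188. Gbp8, another GBP, held 15177 counts over the 20 libraries and Olfr56, an olfactory receptor gene, 11143. The level of the 4 genes cannot be read from this table, and how reads in overlapping genes were counted is not given in the sources used here. Usp18 (62.9% of its span), Psmb8 (57.3%), Irf1 (37.6%) and Irgm2 (34.4%) overlapped other genes in part. Ifit3 and Ifit3b are near-identical copies, and the GBP and Oas families share sequence, so that their counts are uncertain.

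Tumors of a group differed in these genes more than in most. The median SD of log2 CPM over the 5 tumors was 0.50 for the 32 members against 0.32 for all 14488 genes in control IgG input, 0.46 against 0.38 in control IgG IP, 0.94 against 0.49 in 6-3-A6 input and 0.70 against 0.37 in 6-3-A6 IP. A single tumor, 6-3-A6 5, was the highest of its group for 31 of 32 members in input, where 28.2% of all genes had their highest level in it, and for 28 of 32 in IP, where 22.7% did. Its median log2 difference from the median of the other 4 tumors was 1.68 in input and 1.42 in IP over the members, and 0.03 and -0.04 over all genes. Without it, the median SD of members was 0.41 in 6-3-A6 input and 0.36 in IP, against 0.44 and 0.34 over all genes.

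**Figure D1:**
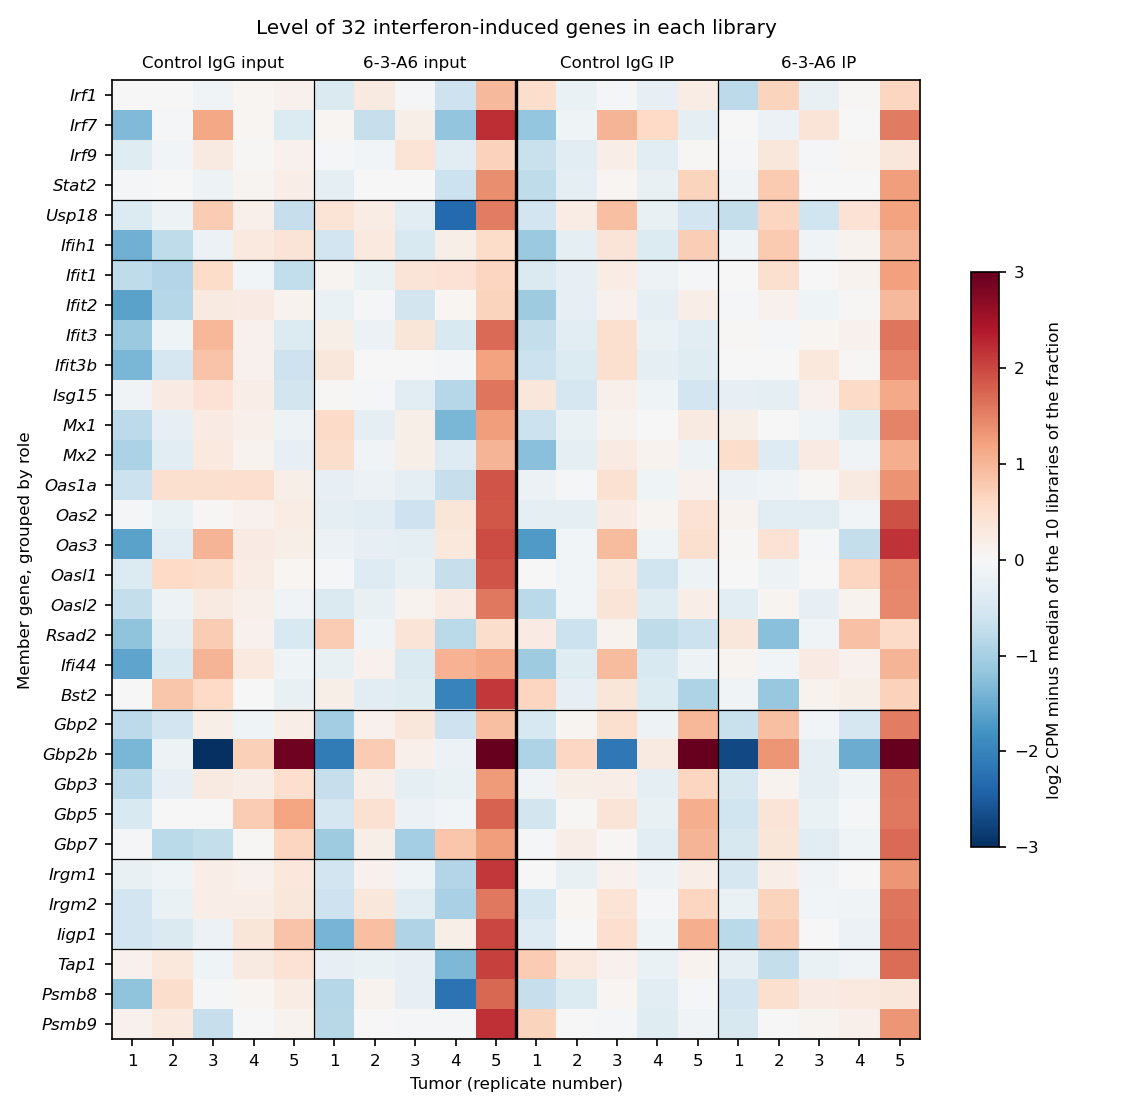
Level of the 32 tested members (rows, grouped by role) in each of 20 libraries (columns, by group and tumor), as log2 CPM minus the median of the 10 libraries of the same fraction; colors saturate at 3 units on either side of 0, which only Gbp2b passed. Tumor 6-3-A6 5 stood above the others of its group for 31 of 32 members in input and 28 of 32 in IP. The exceptions were Rsad2 in both fractions and, in IP, Irf1, Irf9 and Psmb8, which were highest in tumor 6-3-A6 2. Among control tumors, tumor 5 was highest for the GBPs and IRGs and tumor 3 for most antiviral effectors.

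Among the regulators, Irf7 is the transcription factor that amplifies type I interferon production. Listed from tumor 1 to tumor 5, as in all that follows, Irf7 was at 22.3, 54.2, 126, 59.0 and 42.6 CPM in control IgG input and 58.7, 34.9, 64.2, 24.7 and 264 CPM in 6-3-A6 input. It was at 12.5, 25.6, 57.1, 42.6 and 22.7 CPM in control IgG IP and 27.9, 24.6, 36.4, 28.0 and 83.0 CPM in 6-3-A6 IP. Tumor 6-3-A6 5 was the highest library in both fractions, and the other libraries of both treatments overlapped. Stat2, the subunit that carries the transactivating part of the type I complex, was at 32.3, 33.7, 30.5, 35.6 and 38.6 CPM in control IgG input and 27.8, 33.7, 34.1, 21.5 and 88.9 CPM in 6-3-A6 input. In the other fraction, it was at 29.1, 41.3, 52.1, 42.4 and 78.9 CPM in control IgG IP and 46.3, 86.1, 49.5, 50.1 and 119 CPM in 6-3-A6 IP. Control IgG input lay in a narrow range, and tumor 6-3-A6 5 held the highest level in both fractions.

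Usp18, a protease that removes ISG15 from proteins and damps the type I receptor, had 597 counts in all 20 libraries. Its level was 1.11, 1.36, 2.64, 1.70 and 0.898 CPM in control IgG input and 2.04, 1.78, 1.18, 0.210 and 4.58 CPM in 6-3-A6 input. In IP, Usp18 stood at 0.904, 1.66, 2.75, 1.20 and 0.904 CPM in control IgG IP and 0.818, 2.25, 0.891, 1.95 and 3.39 CPM in 6-3-A6 IP. The lowest of these rests on 2 counts, in 6-3-A6 input 4, which is under the limit of 3 counts, and tumor 6-3-A6 5 was highest of its group in both fractions.

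Most antiviral effectors were highest in control tumor 3 and in tumor 6-3-A6 5 of their groups. The gene of Isg15 lies at 156283912 to 156285253 on chromosome 4 and that of Rsad2 at 26492745 to 26506451 on chromosome 12 (GRCm39), and the 4 Ifit genes lie together on chromosome 19. Isg15, a ubiquitin-like protein that is joined to other proteins, was at 13.0, 16.5, 19.0, 16.2 and 9.50 CPM in control IgG input and 14.3, 13.7, 11.2, 7.67 and 42.6 CPM in 6-3-A6 input. Isg15 measured 27.1, 14.9, 23.6, 19.3 and 14.2 CPM in control IgG IP and 17.8, 17.3, 23.3, 31.7 and 46.7 CPM in 6-3-A6 IP. Tumor 6-3-A6 5 held the highest value in each fraction, while the other 4 tumors of its group overlapped the control tumors. Ifit3, which helps to bind viral RNA, was at 17.5, 34.4, 75.3, 41.8 and 28.4 CPM in control IgG input and 43.0, 33.6, 48.4, 27.4 and 124 CPM in 6-3-A6 input. For IP, Ifit3 gave 29.2, 37.8, 66.9, 41.6 and 37.6 CPM in control IgG IP and 49.0, 46.8, 49.9, 52.8 and 146 CPM in 6-3-A6 IP. Of the 15 antiviral effectors, 11 had their highest control input level in control tumor 3 and 9 did so in control IP, against 20.9% and 17.3% of all genes. Tumor 6-3-A6 5 was highest in its group for 14 of 15 in each fraction, Rsad2 being the exception in both. Rsad2 (viperin, which makes a chain-terminating nucleotide) was at 25.6, 49.2, 99.6, 64.3 and 42.7 CPM in control IgG input and 100.5, 54.3, 76.9, 33.8 and 85.4 CPM in 6-3-A6 input. In IP, it stood at 161, 87.9, 148, 80.9 and 87.5 CPM in control IgG IP and 173, 57.2, 126, 250.0 and 204 CPM in 6-3-A6 IP. Its highest library was 6-3-A6 1 in input and 6-3-A6 4 in IP, and the treatments overlapped in both fractions.

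The GBPs and IRGs had another order of control tumors. Gbp2, a GTPase of this family, was at 149, 173, 287, 233 and 291 CPM in control IgG input and 125, 279, 321, 165 and 479.6 CPM in 6-3-A6 input. The 5 tested GBPs, Gbp5, Gbp7, Gbp3, Gbp2b and Gbp2, lie side by side on chromosome 3. In IP, Gbp2 reached 192, 284, 376, 241 and 533 CPM in control IgG IP and 168, 501, 254, 189 and 784 CPM in 6-3-A6 IP. Tumor 5 was the highest in all 4 groups, and the groups overlapped. Gbp2b, which lies next to Gbp2 on chromosome 3 (142300608 to 142324940 for Gbp2b and 142326363 to 142343769 for Gbp2, GRCm39), was at 2.12, 5.08, 0.427, 9.45 and 44.1 CPM in control IgG input and 1.25, 9.68, 6.37, 5.04 and 66.3 CPM in 6-3-A6 input. In IP, Gbp2b was at 3.07, 9.18, 1.26, 7.25 and 74.6 CPM in control IgG IP and 0.818, 15.2, 4.88, 2.05 and 106 CPM in 6-3-A6 IP. Gbp2b had the largest SD of log2 CPM of all members in each group, 2.37 in control IgG input, 2.16 in control IgG IP, 2.03 in 6-3-A6 input and 2.66 in 6-3-A6 IP. Libraries of tumor number 5 held 44.1 to 106 CPM of it and the other 16 libraries 0.427 to 15.2 CPM. The number 5 names different animals in the control and 6-3-A6 groups.

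All 5 tested GBPs and all 3 tested IRGs were highest in control tumor 5, in input and in IP, where 22.3% and 26.5% of all genes had their highest level. Irgm1, a regulatory IRG, was at 79.3, 83.6, 105, 101 and 115 CPM in control IgG input and 61.7, 100.5, 84.0, 49.8 and 399 CPM in 6-3-A6 input. Irgm1 in IP was at 105, 90.2, 115, 94.4 and 120.2 CPM in control IgG IP and 73.9, 122, 98.7, 106 and 266 CPM in 6-3-A6 IP. Apart from tumor 6-3-A6 5, Irgm1 stayed between 49.8 and 122 CPM. At the other end, all 5 GBPs were lowest of their group in tumor 6-3-A6 1, in input and in IP, where 13.2% and 15.4% of all genes were lowest.

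The antigen processing genes Tap1, a peptide transporter, and Psmb8, a catalytic subunit of the immunoproteasome, followed tumor 6-3-A6 5 in input. Tap1 was at 69.7, 79.6, 58.1, 77.1 and 86.7 CPM in control IgG input and 53.2, 55.1, 53.5, 25.0 and 265 CPM in 6-3-A6 input. It was found at 123, 89.6, 79.6, 63.5 and 78.2 CPM in control IgG IP and 61.0, 44.6, 63.2, 68.1 and 235 CPM in 6-3-A6 IP. For Psmb8, input values were 2.45, 8.39, 5.55, 6.06 and 6.74 CPM in control IgG input and 3.17, 6.20, 4.84, 1.16 and 19.4 CPM in 6-3-A6 input. Psmb8 stood in IP at 3.86, 4.70, 6.54, 4.92 and 5.97 CPM in control IgG IP and 4.15, 8.77, 7.38, 7.74 and 7.96 CPM in 6-3-A6 IP. The Tap1 value of tumor 6-3-A6 5 lay above all other libraries in both fractions, whereas in IP the Psmb8 value of that tumor was within the range of its group.

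**Figure D2:**
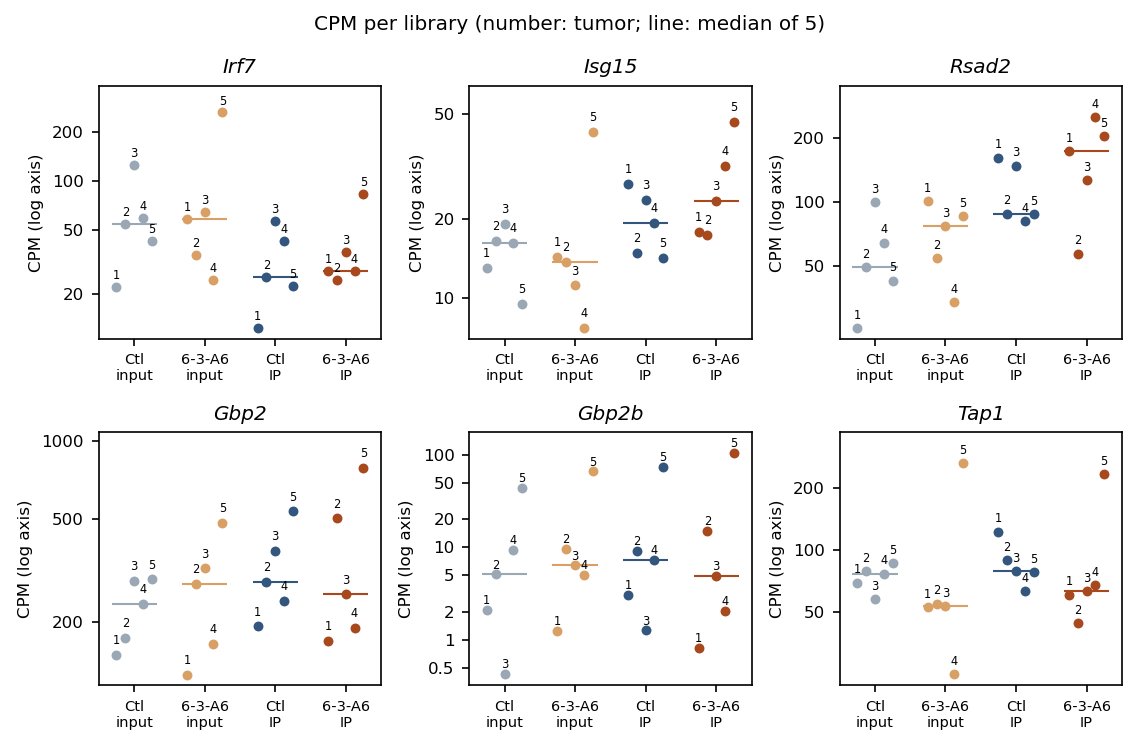
CPM of 6 members (log axis) in each library by group, where a point is a library, its number is the tumor and a line is the median of 5. Tumor 5 lay highest for Gbp2 and Gbp2b in all 4 groups, tumor 6-3-A6 5 for Irf7, Isg15 and Tap1, and Rsad2 was highest in 6-3-A6 IP 4 at 250.0 CPM.

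The summed T and NK cell markers were highest in tumor 6-3-A6 5. The summed level of 11 T and NK cell markers, none of them at 0 throughout a group, was 82.6 to 179 CPM in control IgG input, 75.6 to 521 in 6-3-A6 input, 48.3 to 74.3 in control IgG IP and 35.5 to 306 in 6-3-A6 IP, the highest being tumor 6-3-A6 5 in both 6-3-A6 groups. Cd3e, a subunit of the T cell receptor complex, was an exception in input, at 48.5 CPM in 6-3-A6 input 4 and 42.9 CPM in tumor 5, and the sum of 4 B cell markers was higher in 6-3-A6 input 1 (3.40 CPM) than in tumor 5 (2.49 CPM). Ifng, which encodes interferon-gamma, was at 6.67 CPM in 6-3-A6 input 5 and 0.794 to 1.36 CPM in the other 4 tumors, and at 2.41 CPM against 0.105 to 0.487 CPM in IP. Ifnb1, a type I interferon gene with few counts, was not high in that tumor. It had 1 count in 6-3-A6 input 5 and 3 to 18 in the other 4 tumors, and 0 counts against 0 to 7 in IP. The sum of the 11 macrophage markers, of which Itgam was at 0 throughout, ran from 8357 to 12127 CPM in control IgG input, 6229 to 15002 in 6-3-A6 input, 4469 to 7539 in control IgG IP and 3174 to 8786 in 6-3-A6 IP, again with 6-3-A6 5 as the highest of both 6-3-A6 groups. Tumor 6-3-A6 5 also had the highest sums of 6-3-A6 IP for 6 fibroblast markers (2296 CPM) and the B cell markers (2.05 CPM). It had the highest sum of 6-3-A6 input for 6 dendritic cell markers (29.9 CPM). In the other fraction, each of these lists was highest in another 6-3-A6 tumor. The part of all these cells in the level of the members was not tested. In the control groups, where tumor 3 led for antiviral effectors and tumor 5 for GBPs and IRGs, the T and NK cell sum was 179 and 165 CPM in input of these tumors against 82.6 to 119.8 CPM in the others, and 74.1 and 74.3 CPM against 48.3 to 62.9 CPM in IP. Control tumor 3 also had the highest sums of 5 neutrophil markers (224 CPM in input and 79.2 CPM in IP) and 5 erythroid markers (678 and 374 CPM) and the lowest of macrophage markers (8357 and 4469 CPM), and control tumor 5 had the highest macrophage (12127 CPM) and dendritic cell (38.9 CPM) sums in input but not in IP. The part of these cells in the levels of the members in the control groups was not tested. The study did not keep the IP library of tumor 6-3-A6 5.

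IP was next compared with input over all 20 libraries, to ask how far ribosome-bound endothelial mRNA holds these genes. With edgeR's quasi-likelihood test (Benjamini-Hochberg adjustment over 13582 genes, adjusted p threshold 0.05), 9 of 32 members rose in IP, where 19.8% of all genes did, and 1 fell, where 21.4% did. The median log2 fold change (log2FC) was 0.39 over the members and -0.05 over all genes, and 26 of 32 were above 0. With the tumor as a block, since both fractions come from 1 lysate, 19 members rose (background 25.1%) and 3 fell (background 27.3%). Without tumor 6-3-A6 5, 16 rose (background 19.4%) and 2 fell (background 20.9%). Leaving out only 1 fraction of that tumor moves the contrast, since the tumor was high in these genes. Without 6-3-A6 input 5 alone, 29 of 32 members were above 0, and without 6-3-A6 IP 5 alone, 18 were. By comparison, all 15 endothelial markers rose (median log2FC 4.36), and 7 of 10 tested macrophage and 6 of 11 T and NK cell markers fell (medians -0.79 and -1.06).

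Regulators split in IP. Stat2 rose with a log2FC of 0.64 (SE 0.24, adjusted p = 0.0353) and Irf9, its DNA-binding partner, with 0.40 (SE 0.14, adjusted p = 0.022), while Irf7 fell with -1.05 (SE 0.39, adjusted p = 0.0378). With the tumor block, these were 0.64 (SE 0.14, adjusted p = 0.00137), 0.41 (SE 0.10, adjusted p = 0.00388) and -0.85 (SE 0.14, adjusted p = 0.000216), and Irf1 also rose with 0.36 (SE 0.11, adjusted p = 0.0152). Irf7 was lower in IP in 9 of 10 tumors. Its call was lost when any of several libraries was left out, and without 6-3-A6 input 5 its log2FC was -0.59 (adjusted p = 0.162). The sensor Ifih1, which detects viral double-stranded RNA, rose with 0.96 (SE 0.25, adjusted p = 0.0045). Usp18, on few counts, gave -0.07 (SE 0.37, adjusted p = 0.892).

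Of the 15 antiviral effectors, 3 rose, a share near that of all genes (19.8%). Rsad2 rose with 1.10 (SE 0.26, adjusted p = 0.00203), Ifi44 with 0.95 (SE 0.29, adjusted p = 0.0135) and Ifit2 with 0.66 (SE 0.23, adjusted p = 0.0238). With the tumor block, 9 rose (background 25.1%), and Mx1, a dynamin-like GTPase, and Oas2, which makes the 2-5A messenger, fell with -0.55 (SE 0.13, adjusted p = 0.00228) and -0.32 (SE 0.11, adjusted p = 0.0237). Isg15 moved from 0.51 (SE 0.26, adjusted p = 0.117) to 0.57 (SE 0.17, adjusted p = 0.0132) with the block.

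Among GBPs, Gbp5 (inflammasome assembly is its known role) rose with 1.15 (SE 0.32, adjusted p = 0.0067), Gbp7 with 0.94 (SE 0.32, adjusted p = 0.023) and Gbp3 with 0.78 (SE 0.27, adjusted p = 0.0255), and the block added Gbp2 with 0.42 (SE 0.12, adjusted p = 0.0103). Gbp2b stood at 0.59 (SE 0.87, adjusted p = 0.605) and was not called with the block either (0.23). By tumor, the difference of Gbp5 between IP and input ran from 0.30 to 1.67 on the log2 scale and that of Rsad2 from 0.07 to 2.88. The lowest were control tumor 4 for Gbp5 and tumor 6-3-A6 2 for Rsad2. Their IP libraries had the lowest endothelial marker sums, 1446 and 1111 CPM, against 2595 to 6377 CPM in the others. Rsad2 was highest in tumor 6-3-A6 4, whose input library stood apart, and next in control tumor 1 (2.65). The part of the enrichment in these ranges was not tested. None of the IRGs were called without the block, and with it Iigp1 rose with 0.98 (SE 0.15, adjusted p = 9.05e-05) and Irgm2 with 0.50 (SE 0.10, adjusted p = 0.000719). The 3 genes of antigen processing were not called in either fit, with log2FC of -0.06 to 0.14 without the block. Ifit2, Irf9, Rsad2, Ifi44, Gbp3, Gbp5 and Iigp1 were higher in IP than in input in all 10 tumors, a pattern that 13.6% of all genes had, yet 0 members had IP and input libraries that did not overlap, where 4.48% of all genes lay wholly higher and 0.479% wholly lower in IP.

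**Figure D3:**
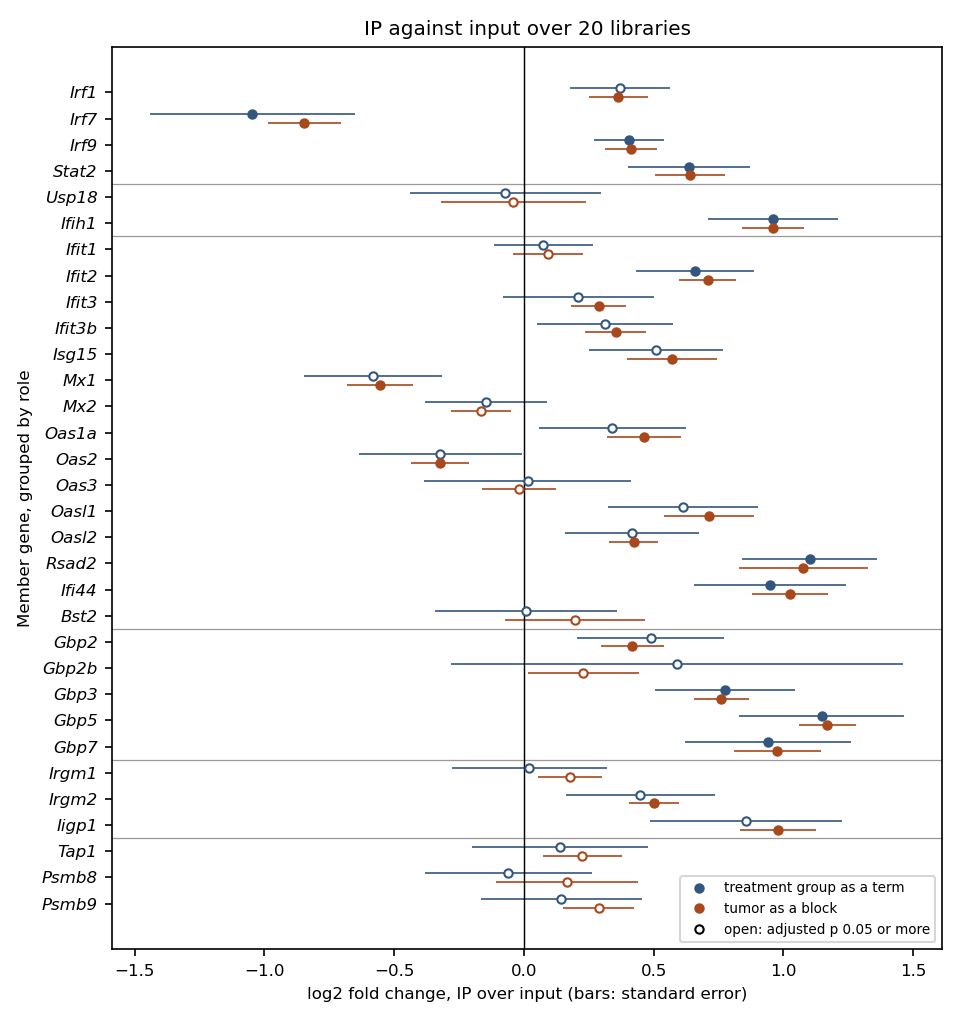
Log2FC of IP over input for each tested member with its standard error, with the treatment group as a term (blue) and with the tumor as a block (red); filled points passed the adjusted p threshold of 0.05. Gbp5, Rsad2, Ifih1, Ifi44 and Gbp7 lay farthest to the right without the block and Irf7 farthest to the left, and the block narrowed the error bars of all 32.

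The rest of the interferon pathway was counted over lists of other genes. Of 30 tested among 32 other interferon-stimulated genes, 11 rose in IP and 4 fell, where 19.8% and 21.4% of all genes did, and with the tumor block 17 rose and 4 fell, where 25.1% and 27.3% did. Of 16 tested receptors and signaling genes, 5 rose, among them the kinases Jak1 and Jak2, and the inhibitor Socs1 fell, with 5 and 3 under the block. Of 10 genes of nucleic acid sensing, Ddx58, Tbk1 and Tlr3 rose and none fell, with 4 and 3 under the block. The counts of both lists are to be read against the same shares of all genes. Only Ifng of 9 ligand genes had enough counts, and it fell with -1.34 (SE 0.46, adjusted p = 0.0233).

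Treatment was compared first in the 6 IP libraries that the study kept, which is the study's own comparison. Per the paper, the treatments separated poorly in a principal component analysis of all IP libraries, and more clearly once outliers were left out. The kept set was thus chosen with these same levels in view, and the p-values do not allow for that choice. Rsad2 rose and Gbp2b fell in 6-3-A6, and the other 30 members did not pass the test. In 13999 genes, 2.57% rose and 2.04% fell. Rsad2 was at 87.9, 80.9 and 87.5 CPM in control IgG tumors 2, 4 and 5 and at 173, 126 and 250.0 CPM in 6-3-A6 tumors 1, 3 and 4, with no overlap. Its log2FC was 1.07 (SE 0.25, adjusted p = 0.0385). Gbp2b was at 9.18, 7.25 and 74.6 CPM against 0.818, 4.88 and 2.05 CPM, also with no overlap, and its log2FC was -3.57 (SE 0.89, adjusted p = 0.0489). The highest of these, control IgG IP 5, was set apart from the other kept control libraries, and without it the log2FC was -1.66 (SE 0.53, adjusted p = 0.12) and 0 members were called.

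Neither call was kept in every fit with a library left out. When each of the 6 libraries was left out in turn, Gbp2b was still called without control IgG IP 2 or 4 and no member was called in the other 4 fits. Rsad2 passed in none of them, with log2FC of 0.78 to 1.28 and adjusted p of 0.0602 to 0.106. DESeq2, which called 9.12% of all genes, called Rsad2 (adjusted p = 0.00152) and not Gbp2b, for which it gave no adjusted p. The 2 Rsad2 libraries of control IgG that the study removed were at 161 and 148 CPM, and those of 6-3-A6 at 57.2 and 204 CPM, so that over all 10 IP libraries the groups overlapped.

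By role, the kept libraries differed in sign. All 5 GBPs had a negative log2FC with Gbp2 at -0.83 (SE 0.31, adjusted p = 0.173) and Gbp3, Gbp5 and Gbp7 between -0.74 and -0.54, as did all 3 IRGs (Iigp1, an IRG that coats pathogen vacuoles, -0.76 (SE 0.35, adjusted p = 0.261)), but Gbp2b alone of these 8 was called. Without control IgG IP 5, Gbp2 was at -0.38 (SE 0.22, adjusted p = 0.418), Iigp1 at -0.24 (SE 0.25, adjusted p = 0.681), Gbp2b at -1.66 (SE 0.53, adjusted p = 0.12) and the other 5 of these genes between -0.26 and -0.0096, so that all 8 stayed below 0 and none was called. Of the 15 antiviral effectors, 11 had a positive log2FC (median 0.32), led after Rsad2 by Isg15 with 0.56 (SE 0.24, adjusted p = 0.226) and Bst2, a membrane tether of viruses, with 0.54 (SE 0.21, adjusted p = 0.177). Of the control IgG IP libraries that the study removed, tumor 3 was highest of its group for 9 of these 15 (17.3% of all genes). Tumor 1, also removed, was highest for 3 (30% of all genes) and lowest for 10 (28.3%). The part of this choice of libraries in the signs by role was not tested. The median over the members was -0.09 and over all genes -0.05. Gbp2 passed the test where no filter on low counts was used (-0.79, adjusted p = 0.0343). Groups did not overlap for 7 members in the higher and 2 in the lower direction, where 13.6% and 10.7% of all genes did not.

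Cell type markers moved in the same 6 libraries. Of 15 endothelial markers, 4 rose and all 15 were above 0 (median log2FC 0.86), with sums of 1446 to 4626 CPM in control IgG and 4394 to 5795 CPM in 6-3-A6. Of 10 tested macrophage markers, 6 fell and all 10 were below 0 (median -0.98), with sums of 6426 to 7539 and 3174 to 3784 CPM. Of 11 T and NK cell markers, 0 were called and all 11 were below 0 (median -0.72), with sums of 48.3 to 74.3 and 35.5 to 42.4 CPM. Both tested erythroid markers, the globins Hba-a1 and Hbb-bs, rose (3.23 and 3.18). The sums of 5 erythroid markers were 22.2, 35.3 and 16.6 CPM in control IgG tumors 2, 4 and 5. In 6-3-A6 tumors 1, 3 and 4 these sums were 434, 239 and 24.3 CPM, so that tumor 4 lay within the control range. Of the removed libraries, control IgG IP 1 and 3 were at 22.1 and 374 CPM and 6-3-A6 IP 2 and 5 at 526 and 28.9 CPM. Fibroblast and epithelial markers, 6 each, were all below 0 with 2 of each list called lower (medians -1.01 and -0.98). The fibroblast sums were 1202 to 2635 and 565 to 1230 CPM, and the epithelial sums 318 to 387 and 167 to 233 CPM. Of 6 dendritic cell markers 1 fell (median -1.08, with sums of 31.2 to 38.9 CPM in control IgG and 38.8 to 47.3 CPM in 6-3-A6), and of 6 mural cell markers 1 rose and 1 fell (median -0.56). The part of these cells in the levels of GBPs and antiviral effectors was not tested.

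Over all 10 IP libraries, edgeR called 0 of 13602 genes (0%), of which 292 passed an unadjusted p of 0.05, and so 0 members. DESeq2 also called 0, with 359 genes at that unadjusted p. Ifit1 alone of the members had an unadjusted p under 0.05 with edgeR (0.56, unadjusted p = 0.044), against 2.15% of all genes, and 2 members did with DESeq2. The log2FC of all 32 members was above 0 (median 0.40, and 0.01 over all genes), the largest being Ifit3 with 0.69 (SE 0.35), Ifit3b with 0.68 (SE 0.33) and Oas3 with 0.63 (SE 0.56) and the smallest Bst2 with 0.06 (SE 0.34), Irf1 with 0.08 (SE 0.28) and Tap1 with 0.12 (SE 0.41). That sign rested on 1 library. Without 6-3-A6 IP 5, 13 members were above 0 and 19 below, and the median was -0.05. Gbp2b moved from 0.42 to -1.78, Gbp2 from 0.22 to -0.24 and Tap1 from 0.12 to -0.57, whereas Rsad2 kept a positive value (0.51 and 0.40).

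In input, edgeR called 0 of 13683 genes (0%), of which 180 passed an unadjusted p of 0.05, and DESeq2 called 0, with 220 genes at that unadjusted p. No member reached it by either tool. Again all 32 members were above 0 (median 0.33, and 0.01 over all genes), from Gbp5 with 0.10 (SE 0.44), Irf1 with 0.11 (SE 0.26) and Irf9 with 0.16 (SE 0.21) to Iigp1 with 0.54 (SE 0.54), Ifit1 with 0.56 (SE 0.28) and Psmb9 with 0.67 (SE 0.49). Without 6-3-A6 input 5, 11 were above 0 and 21 below, with a median of -0.20. Input and IP of a tumor are not independent, and the same tumor was left out in both cases.

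**Figure D4:**
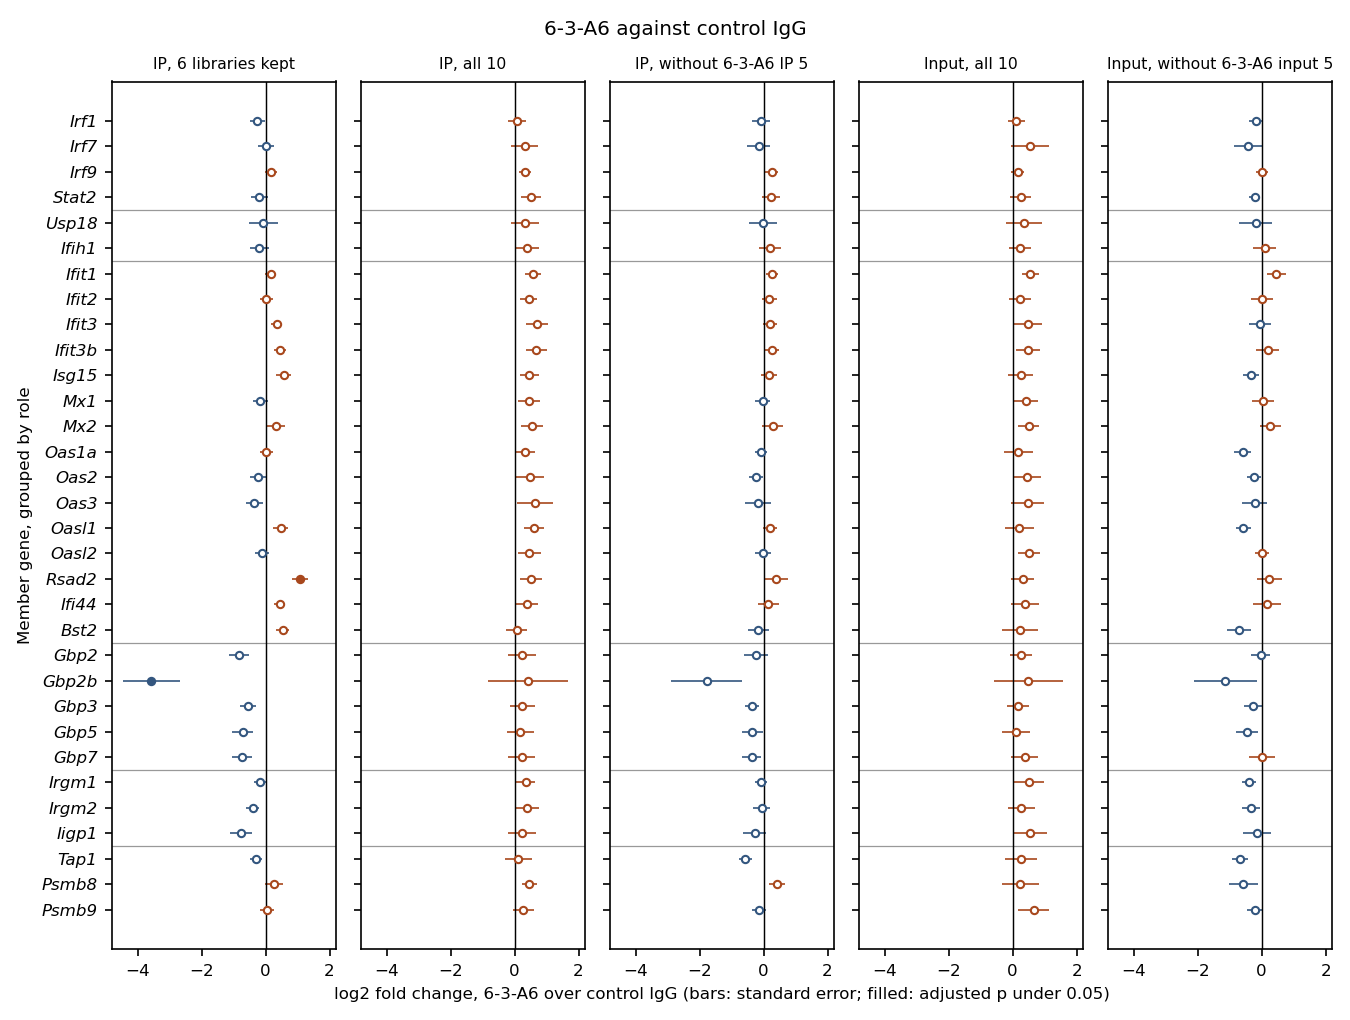
Log2FC of 6-3-A6 over control IgG with its standard error for each tested member, by panel, for the 6 kept IP libraries, the full set of 10 IP libraries, IP without 6-3-A6 IP 5, the full set of 10 input libraries and input without 6-3-A6 input 5; red is above 0, blue below, and filled points passed the adjusted p threshold of 0.05. Rsad2 and Gbp2b in the first panel are the only filled points, and all 32 members are above 0 in IP and in input only while tumor 6-3-A6 5 is included.

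Whether the difference between IP and input depended on treatment was tested as an interaction. EdgeR called 0 of 14488 genes (0%), of which 125 passed an unadjusted p of 0.05, and DESeq2 called 0, with 162 genes at that unadjusted p. No member reached it by either tool. The largest terms were those of Oasl1 with 0.38 (SE 0.58), Stat2 with 0.25 (SE 0.48) and Psmb8 with 0.22 (SE 0.66), and the smallest those of Psmb9 with -0.42 (SE 0.62), Iigp1 with -0.33 (SE 0.74) and Irf7 with -0.24 (SE 0.80). With the tumor as a block, Oasl1 was at 0.56 (SE 0.33), Stat2 at 0.41 (SE 0.26), Psmb8 at 0.57 (SE 0.55), Psmb9 at -0.11 (SE 0.28), Iigp1 at -0.08 (SE 0.30) and Irf7 at 0.10 (SE 0.29), and 0 members were called. Of the 32 terms, 18 were above 0 without the block, and 24 with it. All 32 were above 0 without 6-3-A6 input 5, 4 were without 6-3-A6 IP 5, and 23 were without tumor 6-3-A6 5 in both fractions.

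Other genes of the pathway gave little in the treatment comparisons. In the kept IP libraries, none of 30 other interferon-stimulated genes and none of 17 receptors and signaling genes were called, Tlr9, a sensor of DNA in endosomes, fell among 10 sensing genes (-1.69, SE 0.30, adjusted p = 0.0199), and Nos2, which makes nitric oxide, rose among 5 interferon-gamma targets (1.13, SE 0.25, adjusted p = 0.0325). Only 2 of those 5 interferon-gamma targets were above 0, with a median log2FC of -0.64 and a range of -1.74 to 1.13. The 3 tested of 7 other induced GTPases lay between -0.73 and -0.60 and were not called. Over all IP libraries and in input, 0 genes of these lists were called. Of the other interferon-stimulated genes, 27 of 29 tested in IP and 26 of 30 in input were above 0. The shares of all genes above 0 were 51.7% and 51.8%. Tumor 6-3-A6 5 is part of both counts, and they were not repeated without it.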

How the data were processed

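The authors sequenced IP and input RNA of 10 tumors. Per the labels and the paper, reads were aligned with STAR 2.7.4a and counted with featureCounts 2.0.1 (1.5.2 is also named), and raw counts of 20 libraries were deposited. The builds named with the files include mm10, whereas the coordinates of the count table are of GRCm39. The listed length equals the whole gene span for all 55789 genes listed with 1 span, the 36 members among them, so no level was compared between genes. The strandedness of counting is not given in the sources used here. A DESeq2 table of the authors was not used beyond its column names, which tell the libraries the study kept. It holds fold changes, standard errors, test statistics, p values and 6 columns of counts divided by size factors.

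Counts were tested in R 4.3.3 with edgeR 4.0.16, by its quasi-likelihood test after TMM scaling and filterByExpr. P values were adjusted by Benjamini-Hochberg over all genes tested (threshold 0.05). CPM values were scaled by TMM factors, and log2 CPM had a prior count of 2. SE is the standard error of a log2FC. The alternatives were DESeq2 1.42.0, its size factors, no filter, a replicate block, subsets of tumors and each library left out in turn. Runs without tumor 6-3-A6 5 were added after the data had been seen. The fits were tested on simulated data.

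IP and input of 1 tumor are paired because both come from 1 lysate, and their deviations from the group means correlated with r of -0.0777 to 0.699. The lowest values, in tumors 6-3-A6 4 (-0.0777) and control IgG 4 (0.0464), lay within the range of tumors that share only a number. The labels number the tumors, which are taken as separate animals. No replicates agreed within sampling noise (lowest median chi-square per gene 1.18). The members, their roles, the rule for genes named and all lists were chosen with earlier results of these data known. By that rule, values in every library are given for Irf7, Stat2, Isg15, Ifit3, Usp18, Gbp2, Gbp2b, Gbp4, Igtp, Irgm1, Tap1, Psmb8 and members called between treatments. Called members may be named for IP against input, as may the 3 largest and 3 smallest log2FC of each treatment comparison. Promoters were read from RefSeq.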

Additional observations from a re-analysis of the deposited data

Results flagged for a closer look

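Of 44 groups of 5 libraries examined for the lead members, 3 held a library whose gap to its neighbor, divided by the range of the group on the log2 CPM scale, passed Dixon's 95% critical value of 0.71, and chance passes about 1 group in 20. In 6-3-A6 IP, tumor 5 was far above the others for Ifit3 (146 CPM, ratio 0.894) and for Tap1 (235 CPM, ratio 0.745). In the same group, tumor 1 was far below the others for Psmb8 (4.15 CPM, ratio 0.769). On the CPM scale, 15 of the 44 groups passed, 2 of them also on the log2 scale. The IP library of tumor 6-3-A6 5 was not kept by the study and that of tumor 1 was.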

How the results depend on the processing

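With each library left out in turn, the number of members called between IP and input lay between 7 and 17 (10 with all libraries), and that in the kept IP libraries between 0 and 1 (2 with all). IP against input gave 22 calls with the tumor as the replicate block, 1 in control IgG tumors only, 2 in 6-3-A6 tumors only, 18 without tumor 6-3-A6 5 and 22 without that tumor and with the block. Of all genes, 25.1% rose and 27.3% fell with the block, and 19.4% rose and 20.9% fell without tumor 6-3-A6 5. For the other fits, with fewer libraries, the shares of all genes are not given here. Those counts are thus not to be read as a result about the members. DESeq2 called 1 member in the kept IP libraries, since it gave no adjusted p for Gbp2b there. All libraries of IP, input and the interaction gave 0 members under each alternative run, the replicate block included, and the other counts stayed within 1.5 times.

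Signs of small values turned. For IP against input, values with 1 library left out ran from -0.019 to 0.45 for Ifit3, -0.23 to 0.19 for Usp18, -0.38 to 1.34 for Gbp2b, -0.17 to 0.45 for Irgm1, -0.17 to 0.59 for Tap1 and -0.16 to 0.32 for Psmb8. Irgm1 was at -0.046 in 6-3-A6 tumors only. Usp18 was at 0.025 without tumor 6-3-A6 5 and at 0.015 without it and with the block. Psmb8 was at 0.012 with no filter, 0.17 with the replicate block, 0.29 in tumors of the kept libraries, 0.068 in 6-3-A6 tumors only, 0.28 without tumor 6-3-A6 5 and 0.34 without it and with the block. For 6-3-A6 against control IgG over all IP libraries, values with 1 left out ran from -0.17 to 0.92 for Oas3, -0.17 to 0.27 for Bst2, -0.082 to 0.25 for Irf1 and -0.57 to 0.30 for Tap1, which was at -0.17 with the replicate number as a block. In input, they ran from -0.22 to 0.88 for Psmb9, -0.15 to 0.80 for Iigp1, -0.47 to 0.38 for Gbp5 and -0.19 to 0.26 for Irf1. In input of the tumors of the kept libraries, Psmb9 was at -0.44, Iigp1 at -0.94, Gbp5 at -1.01, Irf1 at -0.44 and Irf9 at -0.0023, and with the replicate block Gbp5 was at -0.013 and Irf1 at -0.0035. The causes were not tested.

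Control and 6-3-A6 tumors of the same number share only that number (correlations of deviations -0.326 to 0.242 in input and -0.191 to 0.366 in IP), and the block changed no call between treatments. Depth limited Usp18 and Ifng, with libraries at 2 counts, and 4 members could not be measured. Without an annotation that splits exons from introns, counts hold intronic reads too. The p-values between treatments within a fraction measure the spread between these tumors. Those of IP against input and of the interaction, without the tumor block, treat IP and input of a tumor as separate samples. With the tumor block, they measure how the difference between IP and input varied over the tumors.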

Other observations

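Among the other interferon-gamma targets, Cxcl9, a chemokine that draws T cells, was at 210.3, 234, 239.8, 313 and 592 CPM in control IgG input 1 to 5 and 89.1, 257, 262, 268 and 1164 CPM in 6-3-A6 input. In IP, Cxcl9 was at 325, 338, 687, 338 and 699 CPM in control IgG and 176, 192, 385, 259 and 1387 CPM in 6-3-A6. The highest library of each group was tumor 5, as for the GBPs and IRGs, and tumor 6-3-A6 1 was lowest in both fractions. Cxcl10, another such chemokine, had 0 counts in all 20 libraries, which was not examined further.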
